A study of Bos taurus with 17 samples.

Results

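Ribosomal protein genes were followed through a bovine myogenic culture on plastic and on scaffolds. Earlier results of these data were known when the set was chosen. Its rows were taken by name: every row of the deposited table whose symbol has the form of a cytosolic ribosomal protein gene (RPL, RPS or RPLP followed by a number, without the letter K that marks a kinase). This gave 80 rows with 76 symbols out of 12894 genes, and 79 of the 80 passed the filter on low values and were tested. Ribosomal proteins whose symbols follow another pattern (such as RPSA, FAU, RACK1 and RPL36AL) are given apart, and several large-subunit genes such as RPL17, RPL22, RPL23A, RPL31 and RPL41 were not analysed here.

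A ribosome joins a small subunit, which reads the messenger RNA, to a large subunit, which forms the peptide bond, and each consists of ribosomal RNA and a fixed complement of proteins. The large subunit carries a flexible stalk, made of RPLP0 with RPLP1 and RPLP2, that recruits elongation factors. In mammals the messenger RNAs of these proteins carry a terminal oligopyrimidine tract, through which mTOR signalling controls their translation as a class, and a few members have paralogs that can take their place.

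All libraries came from primary mesenchymal stem cells of the bovine umbilical cord, a culture of stromal cells that can be driven toward muscle. The smart scaffold cells of day 21 (d21_sS, 3 libraries) grew on a scaffold with the growth factors bound to it and in medium without them. The media scaffold cells of day 21 (d21_mS, 4 libraries) grew on a scaffold in the full differentiation medium. Cells on plastic plates were taken before that medium was added, 1 day after seeding (d0_P, 3 libraries), and after 3 days (d3_P, 3 libraries) and 21 days (d21_P, 2 libraries) in it. The design text calls the libraries biological replicates, but the labels do not say whether they came from separate animals or cultures, so the p-values measure the spread between these libraries. Scaffold cells of day 0 were not analysed here.

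MARS-seq, which counts the 3′ ends of polyadenylated transcripts, gave 2197356 to 15483745 reads per library. Day 21 on plastic had 5264578 and 2197356 reads, its replicate 2 being the shallowest library of all. Replicates of a group correlated at 0.962 to 0.992 across genes on the log2 scale. Of 10 mesenchymal markers, 9 were in the table, and COL1A1 and VIM had the highest mean values of all genes. Of the 9, 8 passed the filter on low values, and 1 was at 0 in both plastic libraries of day 21. Blood and immune markers were low, the 4 blood and immune genes in the table summing to 9.54 to 10.4 normalized reads in smart scaffold libraries, 6.57 to 12.9 in media scaffold libraries, and 16.0 to 22.5, 19.6 to 54.6 and 102 to 127 at days 0, 3 and 21 on plastic. MYOD1 and MYOG, which define muscle precursors, were not analysed here.

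Ribosomal protein transcripts took a smaller share of the scaffold libraries than of the plastic libraries of days 0 and 21. The total is the sum over the 12894 genes given, among which none of 13 listed mitochondrially encoded transcripts was found by symbol. The share of the ribosomal protein rows was 13.7%, 13.8% and 14.1% in the smart scaffold libraries and 14.5%, 15.1%, 14.6% and 15.3% in the media scaffold libraries. On plastic it was 18.3%, 17.5% and 17.5% at day 0, 15.7%, 16.7% and 15.1% at day 3, and 17.4% and 18.1% at day 21. All 7 scaffold libraries lay below the lowest library of day 0 and of day 21 on plastic, and the smart scaffold libraries lay below every media scaffold library. The exact 95% binomial interval of each share reached at most 0.0509 points to either side and covers counting error only, so the spread between replicates is the larger error.

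**Figure D1:**
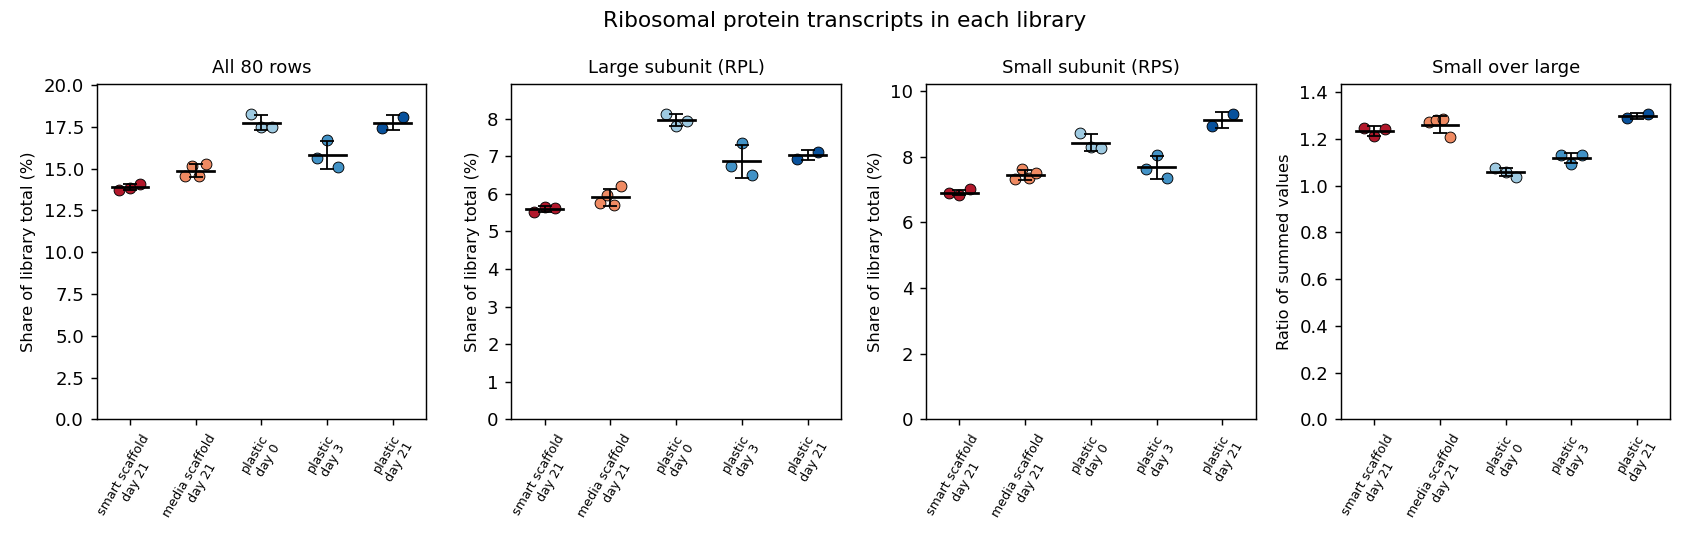
Share of each library's summed normalized reads taken by all 80 ribosomal protein rows, by the large-subunit rows and by the small-subunit rows (in %), and the ratio of the small to the large sum. Points are libraries, horizontal lines are group means and bars are SDs (n = 3 smart scaffold, 4 media scaffold, 3, 3 and 2 on plastic at days 0, 3 and 21). The mean shares of the scaffold groups lie lowest, and the small over large ratio is higher in all 3 groups of day 21 than at day 0.

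The lower share on scaffolds was seen in both subunits. Against day 21 on plastic, the group mean differed by -3.87 points on the smart scaffold and -2.88 points on the media scaffold, and the smart scaffold mean by -0.987 points from the media scaffold mean. Large-subunit rows held 5.60% ± 0.0694 of smart scaffold libraries (SD, n = 3), 5.91% ± 0.226 of media scaffold libraries (n = 4) and 7.02% ± 0.130 of plastic libraries of day 21 (n = 2). Small-subunit rows held 6.91% ± 0.0852, 7.44% ± 0.144 and 9.11% ± 0.250 of the smart scaffold, media scaffold and plastic libraries of day 21. A share also depends on the other transcripts: the 10 genes with the highest means, mostly collagens and actins and with RPS12 among them, held 12.2% of smart and of media scaffold libraries and 7.56% of plastic libraries of day 21. With those 10 genes left out of both the total and the ribosomal protein sum, which removes RPS12, the shares were 15.2%, 16.2% and 18.5% in the same order.

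The balance of the subunits differed between times in culture. The summed value of small-subunit rows over that of large-subunit rows was 1.21 to 1.25 on the smart scaffold and 1.21 to 1.29 on the media scaffold, and on plastic 1.04 to 1.07 at day 0, 1.09 to 1.13 at day 3 and 1.29 to 1.31 at day 21. The ranges of days 0, 3 and 21 on plastic did not overlap, and each scaffold library lay above each library of day 3. This ratio is taken within a library and does not depend on how libraries are scaled. The 3 stalk genes together held 1.38% ± 0.0723 of smart scaffold libraries, 1.52% ± 0.0466 of media scaffold libraries, and 1.37% ± 0.0593, 1.30% ± 0.0410 and 1.62% ± 0.0705 of plastic libraries at days 0, 3 and 21.

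At day 3 on plastic no member rose and 28 of 79 fell (35.4%), where 16.5% of all tested genes rose and 15.3% fell. The estimated change was below 0 for all 79 members, with a median of -0.26 on the log2 scale against -0.02 over all tested genes. The falls comprised 19 of 43 large-subunit rows, 9 of 33 small-subunit rows and none of the 3 stalk genes. Only 5 members fell by at least 1 on the log2 scale (RPL7, RPS3A, RPL22L1, RPL26 and RPS24), a fall shared by 3.73% of all tested genes, and RPL22L1 was not called without replicate 2 of day 0 (-0.998). The count rests on single libraries. It was 18 without replicate 1 of day 0, where 10.3% of all tested genes fell. Without replicate 2 of day 3 it was 49, where 15.1% of all tested genes fell. In bulk samples fewer cells of a type and less RNA per cell cannot be told apart. All 4 smooth muscle markers fell as well, summing to 31711 to 36331 normalized reads at day 0 and 15966 to 18629 at day 3, and their part in the result was not tested.

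**Figure D2:**
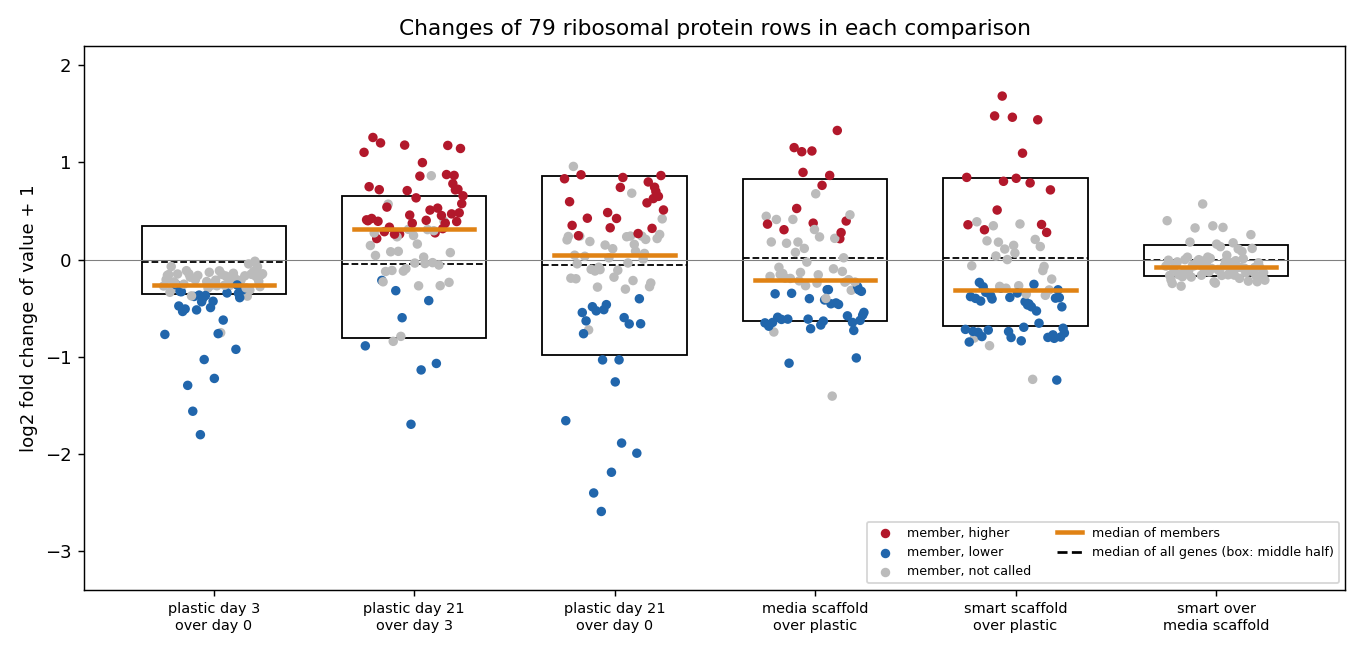
Log2 fold change of value + 1 of the 79 tested ribosomal protein rows in 6 comparisons, the first-named group over the second. Red and blue points are members called higher or lower at an adjusted p under 0.05, grey points are not called, orange lines are member medians, and boxes with dashed lines give the quartiles and median of all tested genes. The members lie below 0 at day 3, spread to both sides at day 21 on plastic, and have medians below 0 on both scaffolds against plastic of day 21.

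RPS24, a small-subunit protein, fell by day 3 and rose again by day 21. It had 6832, 6669 and 5514 normalized reads at day 0, 3250, 3421 and 2656 at day 3 and 6030 and 8127 at day 21 on plastic. The 3 libraries of day 3 lay below all the others, while days 0 and 21 overlapped. The log2 change was -1.03 ± 0.16 (SE) for day 3 over day 0 (adjusted p = 8.4e-05) and 1.18 ± 0.18 for day 21 over day 3 (adjusted p = 1.8e-05). For day 21 over day 0 it was 0.15, with a 95% interval of -0.22 to 0.52.

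RPL9, a large-subunit protein near the base of the stalk, fell at each step on plastic. It had 4064, 4502 and 3747 normalized reads at day 0, 2174, 1999 and 2308 at day 3 and 1112 and 948 at day 21, with no overlap between times. The log2 change was -0.92 ± 0.16 for day 3 over day 0 (adjusted p = 0.00035) and -1.07 ± 0.18 for day 21 over day 3 (adjusted p = 7.5e-05). Day 21 was 3.98-fold lower than day 0.

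RPS4Y1 and its paralog RPS4X, alternative forms of one small-subunit protein, also fell by day 21. RPS4Y1 had 2037, 2039 and 1892 normalized reads at day 0, 1411, 1198 and 1662 at day 3 and 451 and 419 at day 21 on plastic. The times did not overlap, and day 21 was 4.56-fold lower than day 0 (log2 change -2.19 ± 0.13, adjusted p = 1.0e-10). RPS4X had 6102, 4957 and 4979 normalized reads at day 0, 4258, 3885 and 3688 at day 3 and 3261 and 2072 at day 21, a log2 change of -1.03 ± 0.15 for day 21 over day 0 (adjusted p = 1.3e-05).

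RPL7 and RPS3A had the steepest falls among the 79 members. RPL7, a large-subunit protein, had 352, 465 and 210 normalized reads at day 0, 96.3, 69.4 and 118 at day 3 and 51.1 and 55.0 at day 21 on plastic, where the last 2 libraries held 37 and 16 reads. RPS3A, a small-subunit protein, had 1464, 1420 and 791 at day 0, 469, 352 and 386 at day 3 and 192 and 258 at day 21. The libraries of day 0 lay above those of days 3 and 21 in both genes. For day 21 over day 0 the log2 change was -2.59 ± 0.37 for RPL7 (adjusted p = 8.6e-06) and -2.40 ± 0.37 for RPS3A (adjusted p = 2.7e-05). The other members that fell by at least 1 on the log2 scale were RPL35A (-1.89), RPL39 (-1.66), RPL26 (-1.26) and RPL7L1 (-1.03), and RPL26 was not called without replicate 1 of day 21, at -0.96, where RPL35A was at -0.97. Ribosomal protein genes have many processed copies in mammalian genomes, and no source used here says how reads matching several places were counted.

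At day 21 on plastic, on the deposited scale, a smaller share of members than of all tested genes was called in each direction. Against day 0, 21 of 79 rose (26.6%) and 20 fell (25.3%), where 33.4% of all tested genes rose and 36.3% fell. Small-subunit rows accounted for 15 of the rises and 6 of the falls out of 33, large-subunit rows for 4 rises and 14 falls out of 43, and RPLP1 and RPLP2 for the other rises. No member rose by 1 or more on the log2 scale and 9 fell by as much, against 21.2% and 24.1% of all tested genes. With libraries rescaled to the same total, which shifts the median of all genes by -0.257, 14 members rose and 36 fell, where 26.7% of all tested genes rose and 43.6% fell. The small-subunit median was 0.20, and -0.06 after that rescaling. The large-subunit median was -0.10, and -0.37 after that rescaling. Muscle markers moved in the same comparison: all 4 smooth muscle markers rose, to a sum of 69879 to 73570 normalized reads at day 21. Of 8 listed skeletal muscle markers, the 4 in the table summed to 946 to 1031 at day 0 and 11914 to 14405 at day 21. Only 3 of them were tested, with 2 called higher and 0 lower. The part of the muscle markers in the result was not tested.

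RPS19, a small-subunit protein whose loss causes Diamond-Blackfan anaemia in humans, was among the members that rose. It had 31673, 29578 and 30154 normalized reads at day 0, 28930, 29186 and 18741 at day 3 and 54468 and 56516 at day 21 on plastic. The libraries of day 21 lay above those of days 0 and 3, and day 21 was 1.82-fold higher than day 0 (log2 change 0.87 ± 0.14, adjusted p = 4.0e-05). RPL10, which completes the large subunit late in assembly, had 19861, 20665 and 21944 at day 0, 16278, 19702 and 15949 at day 3 and 35025 and 39180 at day 21 (log2 change for day 21 over day 0 0.83 ± 0.15, adjusted p = 0.00010). RPS26, RPL37A and RPLP1 also rose against day 0, by 0.85, 0.80 and 0.75 on the log2 scale.

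RPS6, the substrate of S6 kinase downstream of mTOR, was among the 6 small-subunit rows that fell at day 21 against day 0. It had 9587, 8959 and 9365 normalized reads at day 0, 8319, 7080 and 8287 at day 3 and 7038 and 4904 at day 21 on plastic. Day 21 lay below every library of day 0, with a log2 change against it of -0.66 ± 0.13 (adjusted p = 0.00015), and of -0.40 without replicate 2 of day 21. RPL5, which with RPL11 forms the particle that can bind MDM2, fell by 0.76 on the log2 scale in the same comparison, while RPL11 itself had a change of -0.10 with a 95% interval of -0.33 to 0.13.

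At day 21 on plastic, against day 3, more members rose than fell. Of 79, 41 rose (51.9%) and 8 fell (10.1%), where 29.4% of all tested genes rose and 32.8% fell, and all 3 stalk genes rose. The median change was 0.31 on the log2 scale, against -0.04 over all tested genes. This split depends on the scaling: with libraries rescaled to the same total, which shifts the median of all genes by -0.319, 19 members rose and 21 fell, where 19.6% of all tested genes rose and 43.8% fell. RPL37A, RPS24, RPS19 and RPL10 rose by 1.18, 1.18, 1.14 and 1.10 on the log2 scale, and were called higher after rescaling as well. RPLP0, with 27588, 22985 and 26613 normalized reads at day 3 and 34631 and 31947 at day 21, was called higher on the deposited scale (0.37) and not after rescaling (0.04). Comparisons over time share their libraries with each other and with those of the scaffolds.

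**Figure D3:**
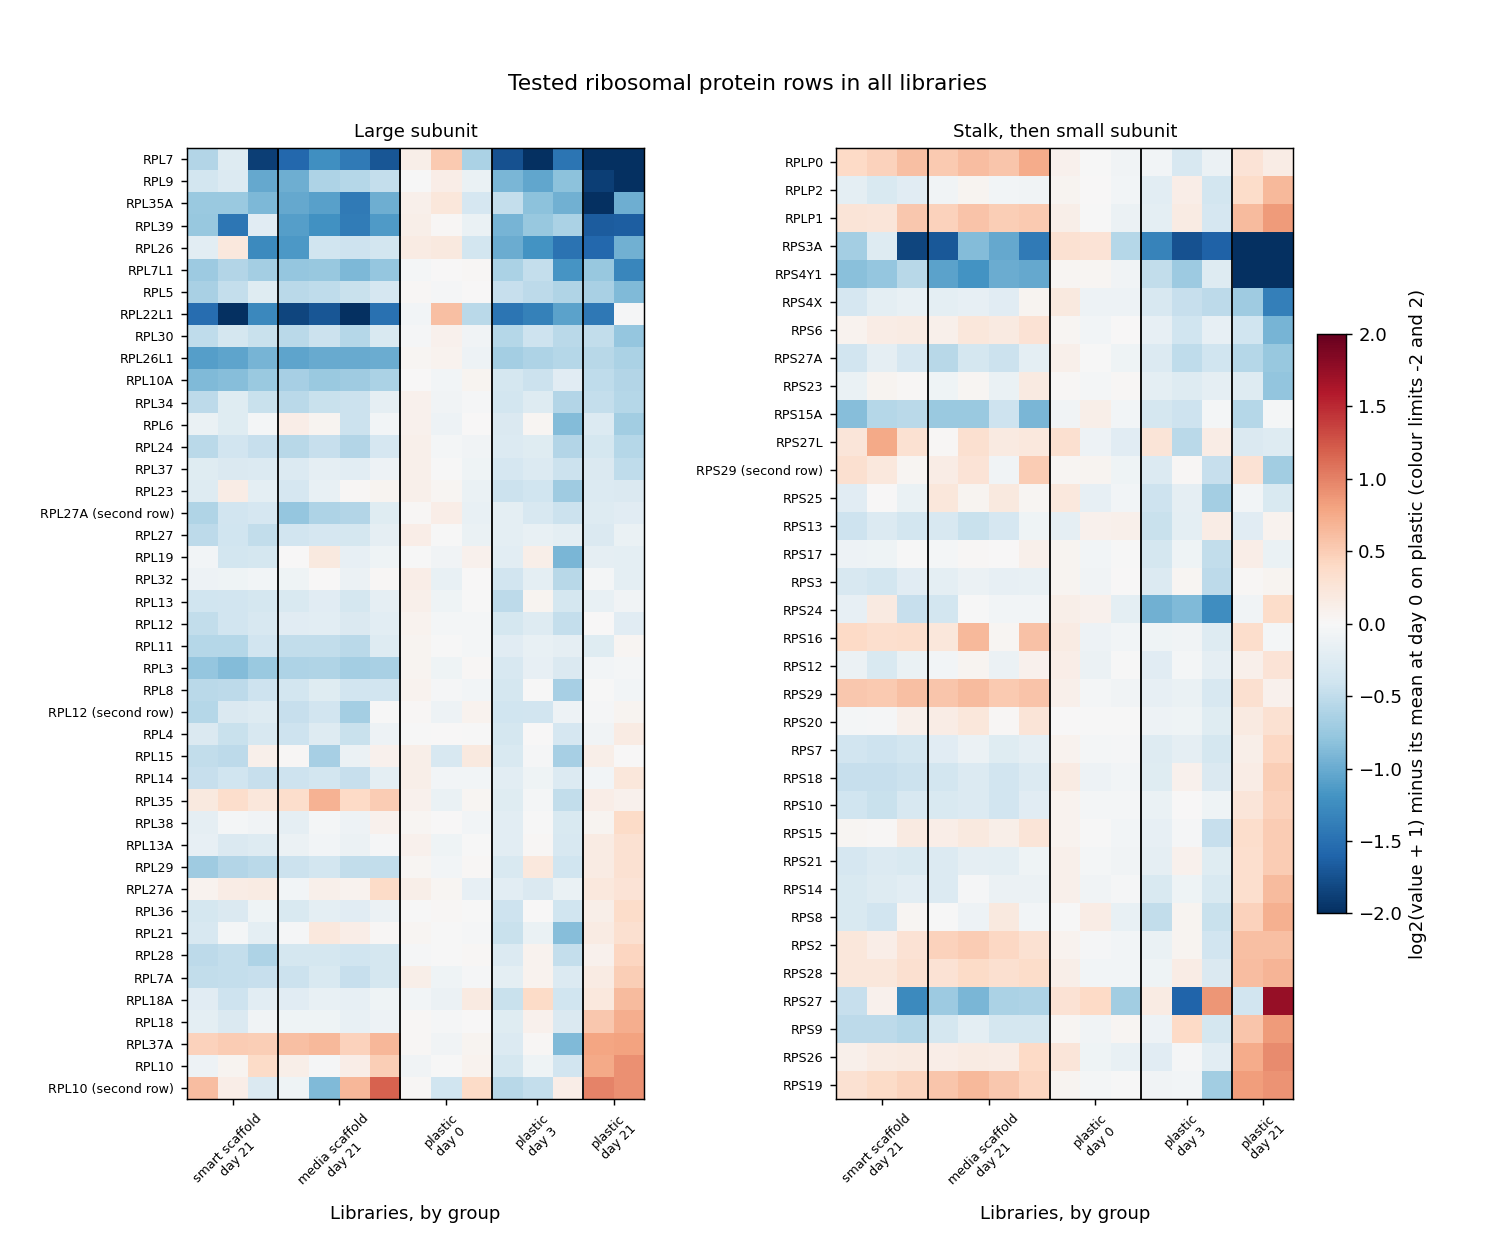
Log2(value + 1) of the tested ribosomal protein rows, 2 of them not shown, in 15 libraries, minus the row's mean at day 0 on plastic, with rows ordered within each subunit class by the change at day 21 on plastic. Red is higher and blue is lower than day 0, with colours ending at 2 and -2. The rows of RPL7, RPL9, RPL39, RPS3A and RPS4Y1 are among the darkest at day 21 on plastic. RPL35A is dark there in replicate 1 and paler in replicate 2. Rows near the foot of the panels, such as RPS19 and RPL10, are reddest at day 21 on plastic.

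The scaffolds were set against plastic at the same time. The media scaffold differs from it in the growth surface, and the smart scaffold also in how growth factors were supplied. On the smart scaffold 15 of 79 members were higher (19.0%) and 39 lower (49.4%), where 32.8% of all tested genes were higher and 31.1% lower. On the media scaffold 14 were higher (17.7%) and 30 lower (38.0%), where 32.9% of all tested genes were higher and 30.6% lower. The member median was -0.31 on the smart and -0.21 on the media scaffold, against 0.01 and 0.02 over all tested genes. Most changes were small: past 1 on the log2 scale were 5 higher and 1 lower on the smart scaffold, against 21.4% and 16.0% of all tested genes. The media scaffold had 4 higher and 2 lower, against 20.8% and 14.6%. The plastic side has 2 libraries, and without its replicate 2 the member median on the media scaffold was -0.13.

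The large subunit gave 6 higher and 20 lower rows of 43 on the smart scaffold, and 6 higher and 17 lower on the media scaffold. The small subunit gave 8 higher and 17 lower rows of 33 on the smart scaffold, and 7 higher and 12 lower on the media scaffold. Of the stalk genes RPLP0 was higher and RPLP2 lower on both scaffolds. RPLP1 was lower on the smart scaffold at -0.40, a call lost without plastic replicate 2 (-0.29) and without smart scaffold replicate 1 (-0.35) or 2 (-0.35). Markers of cell types differed in the same comparisons. The 9 mesenchymal markers summed to 317485 to 377167 normalized reads in smart scaffold, 353659 to 365362 in media scaffold and 164992 to 188516 in plastic libraries of day 21. COL1A1 and VIM, which averaged 135346 and 93212 over all libraries, make up most of that sum. Of the 8 mesenchymal markers that were tested, 4 were called higher and 3 lower on the smart scaffold, and 5 higher and 2 lower on the media scaffold. The 4 smooth muscle markers summed to 67823 to 81553 normalized reads in smart scaffold, 51724 to 64569 in media scaffold and 69879 to 73570 in plastic libraries of day 21. Of these 4, 3 were called lower on the smart scaffold and all 4 on the media scaffold, while ACTA2, which makes up most of the sum, averaged 66620, 48921 and 58561 in the same order. The 8 proliferation markers summed to 645 to 737, 738 to 798 and 529 to 542, and 4 of them were called higher and 2 lower on each scaffold. The part of these markers, and of the low depth of replicate 2 on plastic, in the ribosomal protein result was not tested.

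RPL9 and RPS4Y1, lowest at day 21 on plastic, were among the members with the largest differences in favour of the scaffolds. RPL9 had 3160, 3390 and 2022 normalized reads on the smart scaffold and 2076, 2656, 2743 and 2942 on the media scaffold, against 1112 and 948 on plastic. The log2 change over plastic was 1.44 ± 0.18 on the smart scaffold (adjusted p = 3.0e-06) and 1.33 ± 0.17 on the media scaffold (adjusted p = 4.1e-06). RPS4Y1 had 1109, 1164 and 1348 on the smart scaffold and 950, 864, 1000 and 973 on the media scaffold, against 451 and 419 on plastic. That was 2.76-fold higher on the smart and 2.17-fold higher on the media scaffold, and no scaffold library of either gene reached down to the plastic ones.

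RPS4X and RPS6 were also higher on both scaffolds. RPS4X had 4218, 4626 and 4815 normalized reads on the smart scaffold and 4633, 4746, 4555 and 5498 on the media scaffold, against 3261 and 2072 on plastic. RPS6 had 9769, 10324 and 10378 on the smart scaffold and 10032, 10901, 10574 and 11392 on the media scaffold, against 7038 and 4904 on plastic. Every scaffold library lay above both plastic libraries. The log2 change of RPS4X was 0.81 ± 0.15 on the smart and 0.90 ± 0.15 on the media scaffold, and 0.48 and 0.57 without plastic replicate 2. RPS6 had log2 changes of 0.79 ± 0.13 on the smart scaffold (adjusted p = 3.3e-05) and 0.87 ± 0.12 on the media scaffold (adjusted p = 6.9e-06). RPS3A and RPL7 were also higher on both scaffolds, RPL7 with 216, 271 and 87.4 on the smart and 108, 138, 121 and 98.7 on the media scaffold. On the media scaffold RPL7 was not called without either plastic library or by edgeR, and RPS3A was not called without plastic replicate 1, where its log2 change was 0.94.

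RPS9, a small-subunit protein of the decoding region, was the member most reduced on the smart scaffold. It had 10975, 11007 and 10661 normalized reads on the smart scaffold and 12403, 13883, 12367 and 12379 on the media scaffold, against 23185 and 28511 on plastic. It was 2.36-fold lower on the smart and 2.02-fold lower on the media scaffold, with no overlap (log2 changes -1.24 ± 0.15 and -1.01 ± 0.15, adjusted p = 2.5e-06 and 1.3e-05). RPL3, a large-subunit protein close to the catalytic centre, had 9969, 9386 and 10266 on the smart scaffold and 11136, 11313, 10645 and 10851 on the media scaffold, against 16516 and 16635 on plastic. Its replicates varied little, and its log2 change was -0.75 ± 0.09 on the smart and -0.59 ± 0.08 on the media scaffold. RPL29, RPL18 and RPL7A were lower than on plastic by 0.85, 0.81 and 0.80 on the log2 scale on the smart scaffold and by 0.69, 0.73 and 0.71 on the media scaffold.

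RPLP0, the stalk's anchor on the ribosome and a common reference gene in quantitative PCR, was higher on the scaffolds. It had 38134, 39463 and 43741 normalized reads on the smart scaffold and 41256, 44012, 42126 and 48139 on the media scaffold, against 34631 and 31947 on plastic at day 21 and 30495, 28499 and 27493 at day 0. All scaffold libraries lay above all plastic ones. Over plastic of day 21 the log2 change was 0.28 ± 0.10 on the smart scaffold (adjusted p = 0.027) and 0.40 ± 0.10 on the media scaffold (adjusted p = 0.0021). The smart scaffold call was lost without plastic replicate 2 and without smart scaffold replicate 3, with changes of 0.22 in each.

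**Figure D4:**
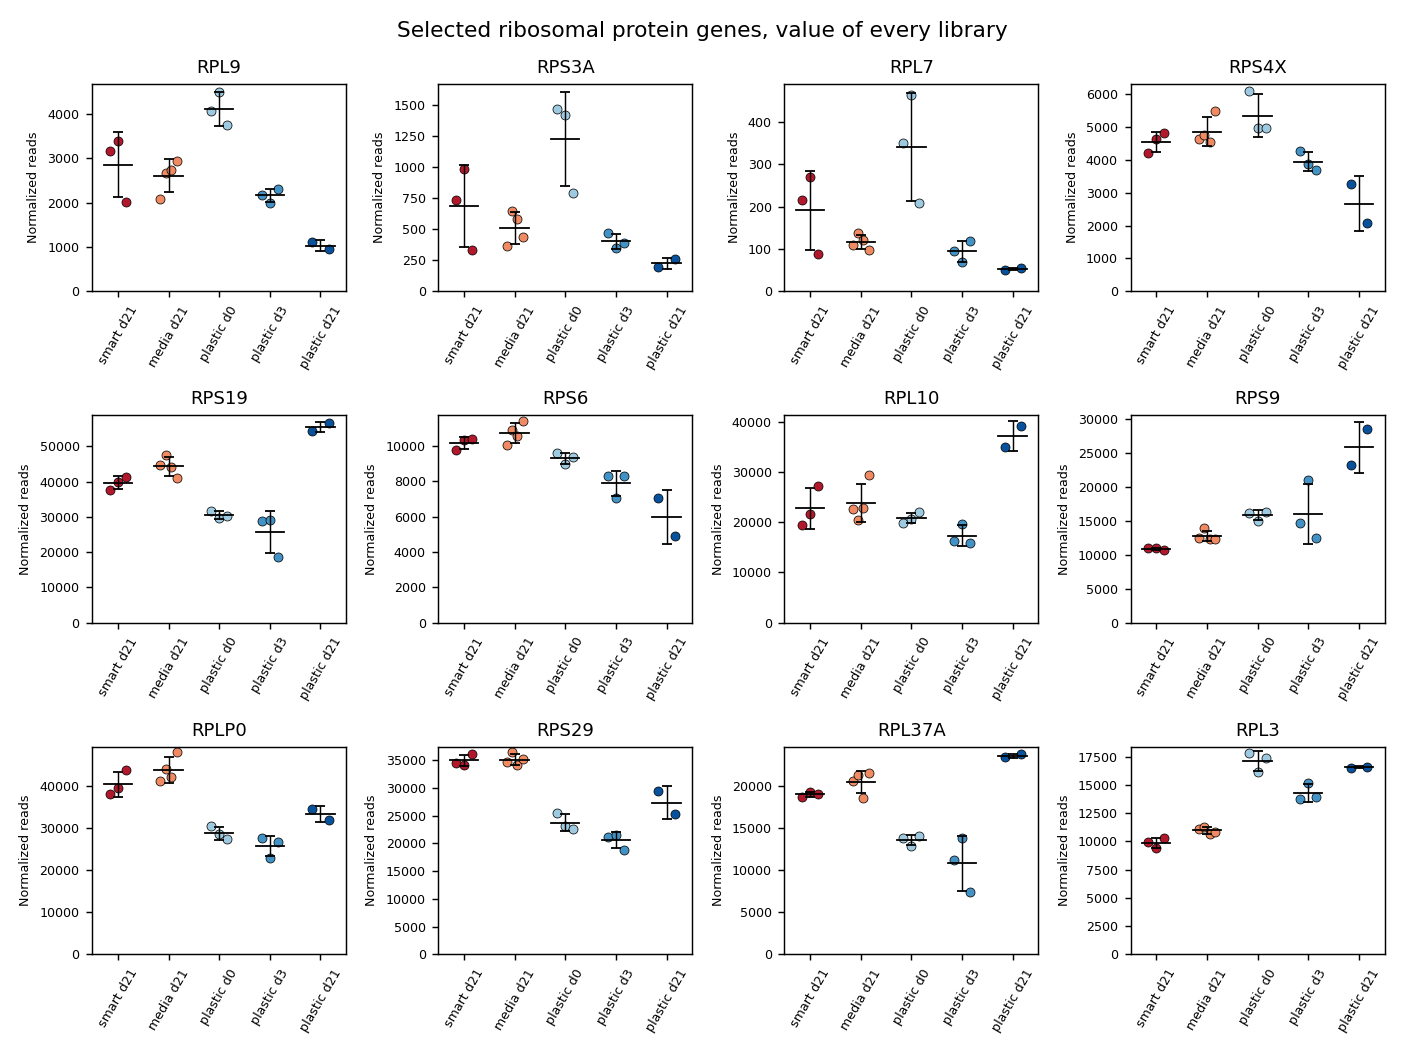
Normalized reads of 12 ribosomal protein genes in every library, with group means (horizontal lines) and SDs (bars), for the smart and media scaffolds at day 21 and plastic at days 0, 3 and 21. RPL9, RPS3A, RPL7, RPS4X and RPS6 are lowest at day 21 on plastic. RPS19, RPL10, RPS9 and RPL37A are highest there. RPLP0 and RPS29 are highest on the scaffolds, and RPL3 is lowest on them.

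The scaffolds differ in how the growth factors were supplied, and between them no member was called in either direction, where 0.693% of all tested genes were higher on the smart scaffold and 1.66% lower. In limma 6 of 79 members had an unadjusted p under 0.05, a cutoff at which the share of all tested genes was not worked out. By edgeR 0 members were called, where 1.1% of all tested genes were higher and 2.13% lower. The median was -0.08 on the log2 scale, and 61 of 79 estimates were below 0. The libraries did not overlap for 17 members that were lower on the smart scaffold and 3 that were higher, shares of 79 to set beside 10.4% and 10.0% of all tested genes. RPL21 had 8188, 9948 and 8898 normalized reads on the smart scaffold and 10100, 11813, 11208 and 10396 on the media scaffold, a log2 change of -0.27 with a 95% interval of -0.54 to -0.01 (adjusted p = 0.36). RPS4Y1 was the member closest to a call, at 0.35 with an interval of 0.12 to 0.57 (adjusted p = 0.11). With the spread taken from the scaffold libraries alone, 7 members were called, 1 higher and 6 lower, where 3.56% of all tested genes were higher and 4.77% lower.

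Against day 0 on plastic, which differs in both time and surface, 7 members were higher and 39 lower on the smart scaffold, where 30.8% of all tested genes were higher and 29.9% lower. On the media scaffold 10 were higher and 34 lower, where 32.5% were higher and 30.9% lower. Rescaling to the same total gave 2 higher and 57 lower on the smart scaffold, where 23.5% of all tested genes were higher and 38.7% lower, and 7 higher and 51 lower on the media scaffold, where 24.7% were higher and 41.2% lower. Large-subunit rows made up 27 of the 39 lower members on the smart scaffold and 25 of the 34 on the media scaffold, on the deposited scale. RPS29, a zinc-binding small-subunit protein, was higher on both, with 34606, 34261 and 36130 normalized reads on the smart scaffold and 34694, 36604, 34119 and 35219 on the media scaffold, against 25456, 23144 and 22621 at day 0. Its log2 change was 0.56 ± 0.09 on the smart and 0.57 ± 0.08 on the media scaffold, and 0.33 and 0.32 after rescaling. RPL9 and RPS4Y1 were lower on both scaffolds than at day 0 on plastic. RPL9 had a log2 change of -0.55 ± 0.16 on the smart scaffold and -0.66 ± 0.15 on the media scaffold, and RPS4Y1 of -0.72 ± 0.11 and -1.07 ± 0.11. Without smart scaffold replicate 3 the smart scaffold change of RPL9 was -0.32 and was not called.

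The paralogs are given beside their parent genes. RPL26L1, a near copy of the large-subunit gene RPL26, had 495, 511 and 560 normalized reads on the smart scaffold and 512, 531, 531 and 537 on the media scaffold, and on plastic 1096, 1114 and 993 at day 0, 664, 693 and 719 at day 3 and 722 and 687 at day 21. The scaffold libraries lay below every plastic library, with log2 changes over day 21 of -0.43 ± 0.10 on the smart scaffold (adjusted p = 0.00087) and -0.42 ± 0.09 on the media scaffold (adjusted p = 0.00079). RPL26 itself had 1053, 1412 and 499 normalized reads on the smart scaffold and 545, 922, 914 and 940 on the media scaffold, against 410 and 625 on plastic of day 21, with overlapping libraries. RPL26L1 over RPL26 was 0.470, 0.362 and 1.12 on the smart scaffold, 0.940, 0.576, 0.581 and 0.571 on the media scaffold and 1.76 and 1.10 on plastic at day 21.

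RPS4Y1 over RPS4X was 0.263, 0.252 and 0.280 on the smart scaffold and 0.205, 0.182, 0.220 and 0.177 on the media scaffold, and on plastic 0.334, 0.411 and 0.380 at day 0, 0.331, 0.308 and 0.451 at day 3 and 0.138 and 0.202 at day 21. The ratio was lower in all libraries of day 21 than at days 0 and 3, and each smart scaffold value exceeded each media scaffold value. The human RPS4Y1 lies on the Y chromosome, and the position of the bovine gene was not analysed here. Reads of such near-identical pairs may be split by the counting, so their separate values are uncertain.

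RPL7L1, the paralog of RPL7, had 1154, 1192 and 1196 normalized reads at day 0, 759, 847 and 523 at day 3 and 696 and 478 at day 21 on plastic. It fell by 0.76 on the log2 scale at day 3 and by 1.03 at day 21. Against day 0 on plastic it was also lower on the smart scaffold (-0.67 ± 0.15) and the media scaffold (-0.80 ± 0.14). RPL22L1, paralog of a gene not analysed here, was near the low end with 7 to 100 reads per library, and had 11.1 ± 3.02 normalized reads on the smart scaffold, 9.53 ± 1.90 on the media scaffold and 36.9 ± 15.1 at day 0. For the media scaffold over plastic of day 21 the log2 change of RPL22L1 was -1.77 without plastic replicate 1 and -0.37 without replicate 2. RPS27L, a p53 target in humans, was 0.72 ± 0.21 higher on the log2 scale on the smart scaffold than on plastic at day 21 (adjusted p = 0.0062), with 644, 914 and 671 against 442 and 450 normalized reads. Its parent RPS27 ran from 117 to 1192 normalized reads with no call in any comparison. RPL3L, the striated muscle paralog of RPL3, held 0 to 6 reads per library and was not tested.

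**Figure D5:**
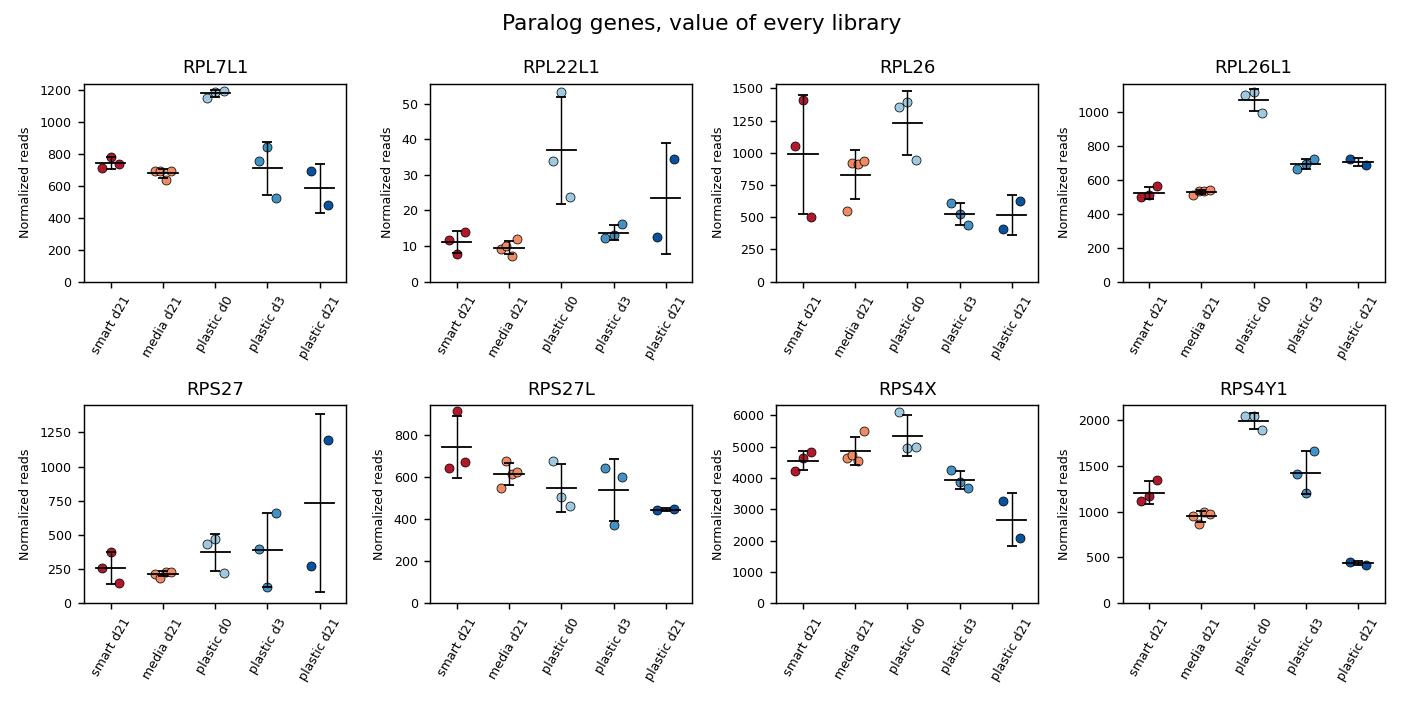
Normalized reads of paralog genes in every library, with group means (horizontal lines) and SDs (bars), for the smart and media scaffolds at day 21 and plastic at days 0, 3 and 21. RPL26L1 lies lower in every scaffold library than in every plastic library, and RPS4Y1 is lowest at day 21 on plastic. RPL26 and RPS27 scatter widely within groups.

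A few members varied together between replicates of one group. In smart scaffold replicate 3, RPL7 (87.4), RPS3A (331), RPL26 (499) and RPL9 (2022 normalized reads) were each the lowest of their group. In replicate 3 of day 0 the same 4 genes had 210, 791, 944 and 3747 normalized reads and were again each the lowest of their group. The shares of the whole set in these libraries were 14.1% and 17.5%. In no other group were the 4 genes lowest in the same library. In replicate 3 of day 3, RPL7 (118) and RPL9 were the highest of their group and RPL26 (436) the lowest. In media scaffold replicate 4, RPL7 (98.7) was the lowest while RPL9 and RPL26 (940) were the highest. These 4 genes were picked after their values were seen.

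Among the members, 4 symbols occur in pairs of rows. The second rows of RPL10, RPL12, RPL27A and RPS29 averaged 41.6, 347, 132 and 207 normalized reads over all libraries, against 23467, 14810, 14679 and 28889 in the first. The second row of RPL10 was higher at day 21 than at day 3 on plastic (log2 change 1.26 ± 0.45, adjusted p = 0.022), a call lost after rescaling (0.93) and without replicate 1 (1.13) or 2 (1.17) of day 3 or 1 (1.22) or 2 (1.30) of day 21. Of the 5 ribosomal proteins with other symbols, 4 rose and 1 fell at day 21 against day 0, and 0 were higher and 3 lower on each scaffold than on plastic. Those counts are on the deposited scale, where 33.4% of all tested genes rose and 36.3% fell at day 21 against day 0, and 31.1% were lower on the smart and 30.6% on the media scaffold.

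The factors that build ribosomes mostly fell on plastic. Of 71 tested ribosome biogenesis factors, none rose and 52 fell at day 3 against day 0, with a median of -0.58 on the log2 scale, where 16.5% of all tested genes rose and 15.3% fell. At day 21 against day 0, 4 rose and 59 fell, with a median of -1.04, where 33.4% of all tested genes rose and 36.3% fell. GNL3, a nucleolar GTPase, had 161 ± 22.2 normalized reads at day 3 against 367 ± 15.9 at day 0, a log2 change of -1.19 ± 0.15 (adjusted p = 7.9e-06). Of 7 chaperones that escort single ribosomal proteins, 6 fell at day 3, led by GRWD1, the chaperone of RPL3 (-0.78 ± 0.14, adjusted p = 0.00028). All 8 proliferation markers fell at day 3 and day 21 against day 0, their sum being 7162 to 7638, 3475 to 4799 and 529 to 542 normalized reads at days 0, 3 and 21, and its part in these falls was not tested.

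Against plastic at day 21, 20 biogenesis factors were higher and 25 lower on the smart scaffold, and 21 higher and 27 lower on the media scaffold, of 71. Of all tested genes 32.8% were higher and 31.1% lower on the smart scaffold and 32.9% higher and 30.6% lower on the media scaffold. Of 18 other translation genes with a terminal oligopyrimidine tract, 5 were higher and 7 lower on the smart scaffold and 6 higher and 6 lower on the media scaffold. EIF2S3, a subunit of the factor that brings the initiator tRNA, was among the higher ones, with 271 ± 31.4 on the smart scaffold and 251 ± 10.8 on the media scaffold, against 26.9 ± 0.897 on plastic (log2 changes 3.28 ± 0.21 and 3.18 ± 0.20, adjusted p = 8.8e-10 and 7.6e-10). Initiation factors outside that class were 10 higher and 8 lower on the smart scaffold and 10 higher and 10 lower on the media scaffold, of 27.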

How the data were processed

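MARS-seq libraries of 15 samples were analysed from the deposited table. Its values are a normalized signal that the authors made by dividing read counts by 1 factor per library. Per the submitters' processing notes the tools were cutadapt, STAR, HTSeq and DESeq and the build ARS-UCD1.2. Versions, strand and molecular identifiers are not given in the sources used here. Dividing by the value of 1 read (0.395 to 3.44) gave whole reads for 100% of values within 0.1. The normalized signal was tested on log2(value + 1) with limma 3.58.1 in R 4.3.3 (trend and robust), in 1 fit of all 15 libraries, tested on simulated data. Genes with a mean of at least 5 were tested (10960, with 1934 left out). p-values were adjusted by Benjamini-Hochberg within each comparison and called under 0.05. Fold changes are on the log2(value + 1) scale, which understates those of low genes.

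Members and lists were chosen with earlier results of these data known. Members named are those called with a log2 change of at least 1, the 8 highest and 8 lowest without overlap, paralog pairs, and RPLP0, RPLP1, RPLP2, RPS6, RPL5 and RPL11, and of each other list the 2 called genes of largest change. Others were chosen after their values were seen. Alternatives were edgeR 4.0.16 on recovered reads, rescaling to equal totals, other pseudocounts and filters, a replicate block, the compared groups alone, and leaving out each library. Same-numbered libraries correlated at -0.0744 to 0.157 in their deviations, so the numbers were not taken as pairs. 2 value columns that match no sample title were not used, and comparisons with scaffold cells of day 0 were not run. Intervals of shares are exact (Clopper-Pearson, 95%). Some members' own values are not reported here, though the counts and sums include them.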

Additional observations from a re-analysis of the deposited data

Results flagged for a closer look

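In 8 of 83 tests, over the 79 tested rows and 4 shares (all rows, large subunit, small subunit and stalk), 1 library lay far from the others of its group, where chance alone picks out about 1 in 20. All 8 were in the media scaffold group of 4 libraries, the only group of 4 or more. RPL11 had 10787 normalized reads in 1 library against 8916 to 9233 in the others. RPL8 had 21294 against 19418 to 19543. RPS26 had 15561 against 12856 to 13172, and RPS9 had 13883 against 12367 to 12403. On the low side, RPS24 had 4906 against 6078 to 6266, and RPL26 had 545 against 914 to 940. RPL28 had 12093 against 12499 to 12581, and RPL7L1 had 635 against 691 to 695.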

How the results depend on the processing

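Several medians changed with the scaling. With libraries rescaled to the same total, the member median at day 21 on plastic was -0.0189 against day 3 (0.0142 when the total left out the members) and -0.221 against day 0 (-0.220 without the members). Against day 0 the same 2 rescalings gave -0.518 and -0.584 on the smart scaffold and -0.419 and -0.469 on the media scaffold. By edgeR the median was -0.00857 for day 21 over day 0 on plastic and -0.262 for the smart scaffold over plastic. The 63 members with a mean of at least 2000, an alternative added after seeing the data, gave 0.186 for day 21 over day 0. With the compared groups alone, 26 members were called for day 21 over day 3 and 7 for smart over media scaffold. Adding the ribosomal proteins with other symbols gave shares of 15.0% (smart scaffold), 16.1% (media scaffold), 19.1%, 17.1% and 19.4% (days 0, 3 and 21 on plastic). Leaving the 10 highest genes, RPS12 among them, out of both the member sum and the total gave 15.2%, 16.2% and 18.5% on the smart scaffold, the media scaffold and plastic of day 21.

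Leaving out each library in turn gave 18 to 49 member calls for day 3 over day 0, 36 to 54 for day 21 over day 3, 36 to 49 for day 21 over day 0, 37 to 56 for the smart and 25 to 49 for the media scaffold over plastic, 0 to 1 for smart over media scaffold, and 36 to 53 for the smart and 37 to 48 for the media scaffold over day 0. Medians ran in the same order from -0.35 to -0.216, 0.241 to 0.387, 0.00127 to 0.0592, -0.383 to -0.226, -0.231 to -0.132, -0.116 to -0.0499, -0.306 to -0.25 and -0.208 to -0.136. Shares ran from 13.8% to 14.0% (smart scaffold), 14.7% to 15.0% (media scaffold), 17.5% to 17.9%, 15.4% to 16.2% and 17.4% to 18.1% (days 0, 3 and 21). RPL35A on the media scaffold over plastic was -0.153 without plastic replicate 1 and 1.68 without replicate 2. Calls of all tested genes moved as well. For day 3 over day 0, 12.8% rose and 10.3% fell at 18 member calls, and 14.9% and 15.1% at 49. For the smart scaffold over day 0, 28.5% were higher and 27.2% lower at 36 member calls, and 32.2% and 31.1% at 53. The media scaffold over day 0 had 29.5% and 27.5% without replicate 1 of day 0 (37 calls), and 33.9% and 32.4% at 48. The lowest counts of the scaffolds over plastic rest on 1 plastic library of day 21, so no shares are given there. The cause of these changes was not tested.

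With the replicate block, member calls were 28, 44, 40, 53, 45, 0, 45 and 42 in that order. The shares of all tested genes called higher were 15.9%, 28.2%, 32.5%, 31.8%, 31.3%, 0.438%, 30.3% and 30.9% in the same order. Those called lower were 14.4%, 31.7%, 35.6%, 29.6%, 28.2%, 1.12%, 29.6% and 29.3%. The block ended the calls of RPL5 on both scaffolds over plastic and of RPS19 on the media scaffold, and of no other named member. Plastic of day 21 has 2 libraries, and its replicate 2 the fewest reads of all (2197356), which limits every comparison with it.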
